A study of Mus musculus with 12 samples.

Results

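The genes of the T cell receptor complex and of the T cells that carry it were followed in islet RNA of the diabetes-prone NOD mouse and of NOD.B10 mice. All probes of 10 genes were taken: Cd3d, Cd3e, Cd3g, Lck, Cd4, Cd8a, Cd5, Cd2, Il7r and Ms4a4b. They had 16 of the 41174 non-control probes on the array, with 3 for Cd8a, 2 for Il7r, 4 for Ms4a4b and 1 for each other gene. Groups were 6 female NOD mice and 6 female NOD.B10 mice, all 12 weeks old, with 1 array per mouse. NOD.B10 mice share the NOD background, carry another MHC haplotype and stay free of diabetes. Islets were cut by laser from frozen sections of the pancreas, no fewer than 40 of them per collection as the labels describe it, and their RNA was carried by the Cy5 channel after amplification. The Cy3 channel of every array held the same mouse universal RNA, the reference. The labels do not say how islets were picked or whether they held infiltrate, and no T cells were isolated. The islet hormone genes Ins2 and Gcg were well above background on all 12 arrays.

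A T cell recognises peptide held by an MHC molecule through the antigen-binding chains of its receptor, which have almost no tail of their own inside the cell. The CD3 chains carry the signal inward, the co-receptors CD4 and CD8 bind the MHC molecule and bring the kinase Lck to the complex, and further surface proteins tune the response or keep the cell alive. In NOD mice T cells gather around and within the islets before diabetes begins, a state called insulitis, and both CD4 and CD8 T cells take part in the loss of beta cells.

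Of the 10 genes, 5 gave an islet signal that could be tested, and 5 did not. Cd3d, Cd5, Cd8a, Il7r and Ms4a4b were all higher in NOD islets, and for each of them the 6 NOD mice lay above the 6 NOD.B10 mice without overlap. The largest differences were those of Ms4a4b and Il7r. Cd3e, Cd3g, Lck, Cd4 and Cd2 were well above background in the islet channel on none of the 12 arrays. A gene was tested where its Cy5 signal was well above background, as the scanner marks it, on at least 4 of the 12 arrays. No NOD.B10 array met that mark for any member, so all 5 passed through the NOD arrays and could hardly have come out otherwise than higher. Their number is therefore a description. In the same fit 18.8% of the 3920 genes tested were called higher, 9.52% were higher without overlap and 8.93% were called higher although NOD.B10 gave no array above background. "Called" here means an adjusted p under 0.05 in limma after Benjamini-Hochberg adjustment over the genes tested.

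For the 5 tested genes, 250 bases before a start site are shown, which for Cd3d, Cd5 and Il7r lie partly within the annotated gene. They are RefSeq promoter windows of mouse assembly GRCm38.p6, written 5′ to 3′ on the gene's strand. Capitals mark matches, on either strand, to an Ets motif (AGGAAG) or an E-box (CANNTG), letters bound by factors of those names.
Cd3d, chr9:44981536-44981785, plus strand: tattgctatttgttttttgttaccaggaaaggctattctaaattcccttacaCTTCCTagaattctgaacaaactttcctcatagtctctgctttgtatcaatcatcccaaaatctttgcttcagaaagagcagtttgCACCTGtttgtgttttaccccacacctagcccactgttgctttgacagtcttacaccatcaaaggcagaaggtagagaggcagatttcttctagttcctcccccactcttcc
Cd5, chr19:10738975-10739224, minus strand: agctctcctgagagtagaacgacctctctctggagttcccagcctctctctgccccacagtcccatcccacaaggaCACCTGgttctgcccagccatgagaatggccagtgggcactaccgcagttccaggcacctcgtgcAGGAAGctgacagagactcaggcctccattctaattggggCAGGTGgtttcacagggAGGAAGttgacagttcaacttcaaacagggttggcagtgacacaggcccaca
Il7r, chr15:9529877-9530126, minus strand: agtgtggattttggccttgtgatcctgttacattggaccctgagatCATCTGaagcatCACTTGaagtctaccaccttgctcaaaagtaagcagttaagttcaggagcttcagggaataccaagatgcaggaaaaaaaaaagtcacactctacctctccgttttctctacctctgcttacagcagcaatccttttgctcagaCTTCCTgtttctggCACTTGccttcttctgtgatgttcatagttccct
Cd8a, chr6:71373177-71373426, plus strand: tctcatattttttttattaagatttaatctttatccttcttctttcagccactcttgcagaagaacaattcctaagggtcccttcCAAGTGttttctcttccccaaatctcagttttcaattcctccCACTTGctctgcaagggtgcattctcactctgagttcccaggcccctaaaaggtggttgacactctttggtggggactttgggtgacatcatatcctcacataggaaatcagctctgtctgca
Ms4a4b, chr19:11443308-11443557, plus strand: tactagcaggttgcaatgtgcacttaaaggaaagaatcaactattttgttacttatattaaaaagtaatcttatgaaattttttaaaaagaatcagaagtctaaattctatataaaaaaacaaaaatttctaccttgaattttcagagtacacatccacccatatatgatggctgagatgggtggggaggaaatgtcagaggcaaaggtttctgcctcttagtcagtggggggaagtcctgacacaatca
The Ets letters were present in 3 of these 5 windows (Cd3d, Cd5 and Il7r), and in 29.5% of all 32851 windows of this length. The E-box letters were present in 4 of the 5, all but Ms4a4b, and in 66.2% of all windows. In the 4 windows of the untested members Cd3e, Cd3g and Lck, 3 held the Ets letters and 3 the E-box letters, so the letters do not set the tested genes apart. A Runx motif (TGTGGT, in 14.0% of all windows) and a GATA motif (AGATAA, in 10.0%) were present in none of the 5. No capital letters overlap between motifs. These are matches of letters only, and nothing about the binding of a factor follows from them. The table has 8 of the 10 genes. Cd2 and Cd4 have no entry. Cd3g, Cd3d and Cd3e are neighbours on chromosome 9 with 0 annotated genes between Cd3g and Cd3d and 0 between Cd3d and Cd3e.

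Cd3d encodes the delta chain of CD3, 1 of the chains that carry the signal of the receptor. Its net Cy5 signal, which is the spot's median less its local background in scanner units, was 12.5 at the lowest, 39.0 at the median and 70.5 at the highest in NOD islets, against -7, 1.5 and 5.5 in NOD.B10 islets. All 6 NOD mice were well above background, with replicates 3 and 5 low and replicate 2 high, and no NOD.B10 mouse was. The log2 ratio of islet to reference signal averaged 1.11 ± 0.59 in NOD islets and -0.02 ± 0.19 in NOD.B10 islets (SD, n = 6 each). The log2 difference, NOD minus NOD.B10, was 1.13 ± 0.23 (SE, limma adjusted p = 0.00222). A constant of 50 is added to every signal before the logarithm, so such differences understate the change of dim probes. Where NOD.B10 gave no signal above background a fold is only a lower bound, taken against the 10th percentile of the signals well above background on each NOD.B10 array. For Cd3d this bound was not above 1, so no fold is given.

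Cd3e and Cd3g encode the epsilon and gamma chains, partners of the delta chain. Cd3e had a net Cy5 signal between -4.5 and 1 in NOD islets and between -4 and 6 in NOD.B10 islets. Cd3g lay between -1 and 6 in NOD islets and between -3 and 6.5 in NOD.B10 islets. These ranges overlap and sit at the level of the negative-control spots, of which the 153 on an array averaged between 0.203 and 2.50 in net Cy5. The 2.50 belongs to NOD.B10 replicate 5, where these spots had an SD of 12.8 and a maximum of 140. The next highest average was 1.69, in NOD.B10 replicate 6. The single probes of both genes were also weakly read in the common reference RNA, Cd3e on 5 of the 12 arrays and Cd3g on 0. So the arrays give no usable islet reading of either chain, and for Cd3g none of the reference either.

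Lck is the kinase that begins signalling at the receptor. Its log2 ratio of islet to reference signal ran from -0.12 over a median of 0.11 to 0.34 in NOD islets and from -0.20 over -0.03 to 0.15 in NOD.B10 islets. The highest NOD mouse was again replicate 2, the strains overlapped, and no array was well above background. The probe was read in the reference RNA on all 12 arrays, unlike those of Cd3e and Cd3g. In a fit over all non-control probes, which called 2.21% of them higher, its difference was 0.12 ± 0.08 on the log2 scale (SE, limma adjusted p = 0.603).

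Cd4 and Cd8a encode the co-receptors for MHC class II and class I molecules. The Cd4 probe was printed on 10 spots of each array. Averaged over them, its net Cy5 signal was 0.111 to 1.95 in NOD islets and -0.111 to 2.63 in NOD.B10 islets, and no spot of it was well above background on any array. It was not read in the reference RNA either (0 of 12 arrays). So the arrays hold no usable reading of Cd4 in either strain.

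The main Cd8a probe was also printed on 10 spots. Its net Cy5 signal was 6.80 at the lowest, 31.1 at the median and 83.8 at the highest in NOD islets, against -0.550, 0.875 and 2.19 in NOD.B10 islets. NOD replicates 1 and 2 were high and replicates 3 and 5 low. Within an array the spots gave the same picture: 83.8 ± 20.6 in NOD replicate 1 and 6.80 ± 4.37 in NOD replicate 5, the dimmest (SD over 10 spots, a technical spread). On that dimmest NOD array 2 of the 10 spots were well above background. Outlier spots apart, the log2 ratio averaged 0.98 ± 0.74 in NOD islets and -0.06 ± 0.06 in NOD.B10 islets (SD, n = 6 each). The difference was 1.03 ± 0.27 (SE, limma adjusted p = 0.00998), with a signal at least 1.17-fold higher in NOD islets.

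Neither further Cd8a probe was called. One (A_51_P345121) was read in the reference RNA on all 12 arrays and in islet RNA on 2 NOD arrays. Its net Cy5 signal was 1 to 15.5 in NOD islets and -0.5 to 7.5 in NOD.B10 islets, which overlap. Its difference was 0.21 ± 0.09 (SE, limma adjusted p = 0.230 over all probes). The other (A_52_P150547) was read in neither RNA on any array.

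Cd5 and Cd2 are surface proteins of T cells, the first a brake on receptor signalling and the second an adhesion receptor. Cd5 had a net Cy5 signal of 5.5 at the lowest, 19.5 at the median and 52 at the highest in NOD islets, against -3, -1.25 and 1 in NOD.B10 islets. Its 4 brighter NOD arrays were well above background and replicates 3 and 5 were not, although they still exceeded every NOD.B10 mouse. In replicates 3 and 5 the net signals, 7 and 5.5, lay under the brightest negative-control spot of the same array, 9 and 8. So the lack of overlap rests there on signals within the range of negative controls. The log2 ratio averaged 0.65 ± 0.48 in NOD islets and -0.15 ± 0.08 in NOD.B10 islets (SD, n = 6 each). The difference was 0.81 ± 0.19 (SE, limma adjusted p = 0.00493), again with no fold since the bound was not above 1. Cd2 lay between -1 and 5 in NOD islets and between -4 and 6 in NOD.B10 islets, was read in the reference RNA on 2 of 12 arrays and gave no reading of the islets.

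Il7r encodes the alpha chain of the receptor for interleukin 7, a survival factor of resting T cells. Its net Cy5 signal was 50.5 at the lowest, 176 at the median and 462 at the highest in NOD islets, against -4, -0.75 and 3.5 in NOD.B10 islets. Every NOD mouse was well above background. Replicate 2 was the highest and replicates 3 and 6 the lowest in islet signal. On replicate 6 the reference signal of the probe was also the dimmest, and as a percentage of it replicate 6 (53.9%) stood above replicates 5 (32.5%) and 3 (20.4%). The log2 ratio averaged 2.92 ± 1.24 in NOD islets and -0.14 ± 0.11 in NOD.B10 islets (SD, n = 6 each). The difference was 3.06 ± 0.45 (SE, limma adjusted p = 0.000313), with a signal at least 3.69-fold higher in NOD islets. A second Il7r probe (A_52_P555957), not read in either RNA on any array, gave -0.08 ± 0.06 (SE).

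Ms4a4b encodes a membrane-spanning protein of the MS4A family found on mouse T cells. Its net Cy5 signal was 81.5 at the lowest, 312 at the median and 618 at the highest in NOD islets, against -2.5, 3.5 and 11 in NOD.B10 islets. The lowest NOD mouse exceeded the highest NOD.B10 mouse by far, and replicates 3 and 5 were again the low ones. The log2 ratio averaged 3.53 ± 1.11 in NOD islets and 0.05 ± 0.22 in NOD.B10 islets (SD, n = 6 each). The difference was 3.48 ± 0.41 (SE, limma adjusted p = 7.46e-05), with a signal at least 5.77-fold higher in NOD islets. Its 3 further probes were in islet RNA well above background on no array, with log2 differences of 0.05 to 0.08.

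**Figure D1:**
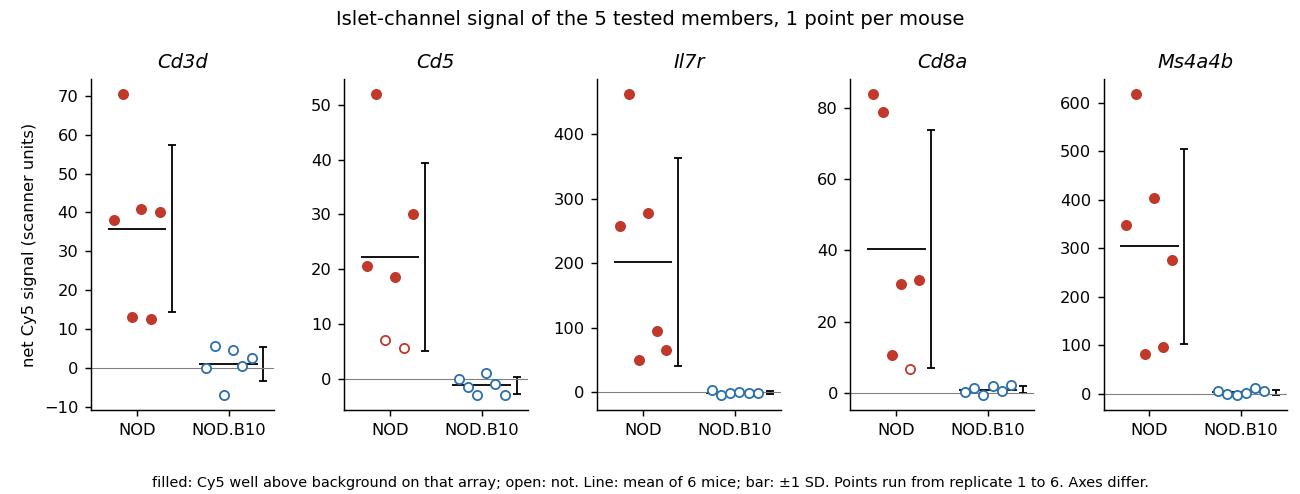
Net Cy5 signal in scanner units (spot median less local background) of the 5 tested members, 1 point per mouse, NOD on the left and NOD.B10 on the right of each panel, with the mean of 6 mice and ±1 SD. All NOD points lie above all NOD.B10 points in each panel, and no NOD.B10 point is well above background (open symbols); the vertical axes differ between genes.

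Which probes were read in the islets followed which were read in the reference RNA. Of the 16 member probes, 7 were well above background in the Cy3 channel on all 12 arrays, and 5 of these were read in the islet channel on at least 4 NOD arrays. The exceptions were Lck and the Cd8a probe A_51_P345121. Of the 9 probes read by Cy3 on fewer arrays (0 to 9), 0 were read in the islet channel on at least 4 NOD arrays. Over the whole array 30.9% of the 16344 probes of the first kind and 0.217% of the 24830 of the second were read on at least 4 NOD arrays. For members whose probe failed in both RNAs, low transcript and a poor probe cannot be told apart.

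**Figure D2:**
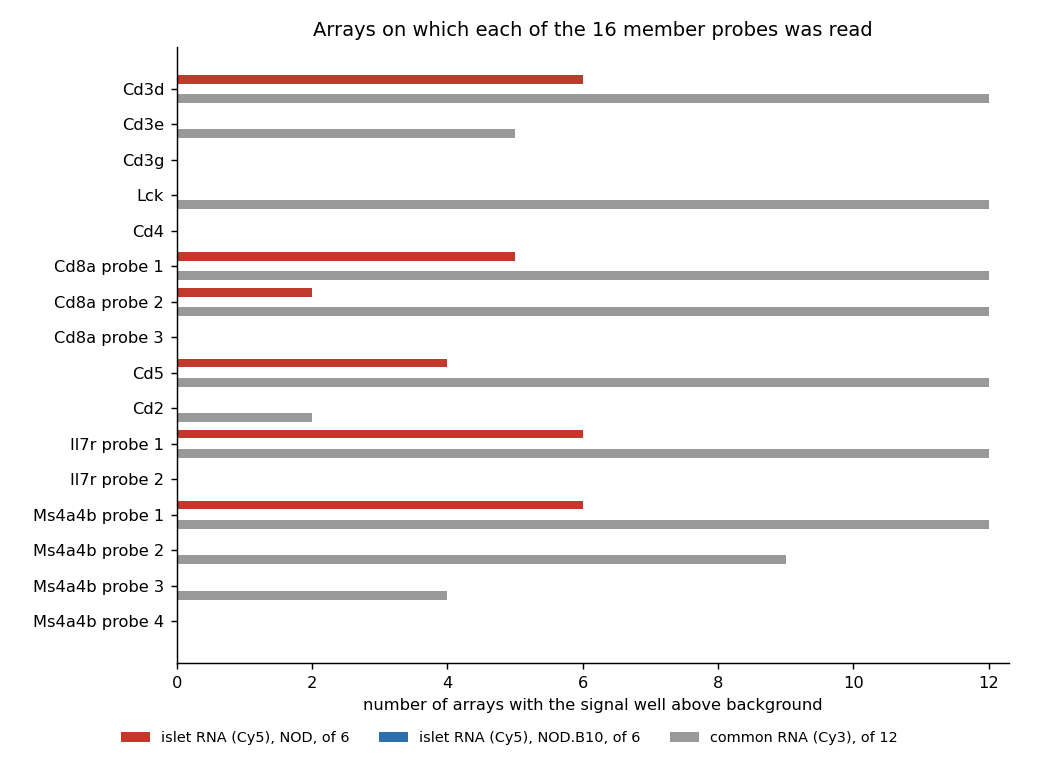
Number of arrays on which each of the 16 member probes was well above background in NOD islet RNA (of 6), NOD.B10 islet RNA (of 6) and the common reference RNA (of 12). No bar appears for NOD.B10, since no member probe was read there, and the 5 tested probes all have the full 12 reference arrays.

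The NOD mice differed widely among themselves. The mean of the 5 tested members, each centred on its own mean over the 12 arrays, was 1.87 in NOD replicate 2, 1.45 in replicate 4, 1.40 in replicate 1, 0.86 in replicate 6, 0.16 in replicate 5 and -0.03 in replicate 3. The 6 NOD.B10 mice lay between -1.09 and -0.89, the level of no islet signal. In these bulk samples fewer T cells and less RNA per T cell cannot be told apart.

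NOD arrays as a whole were brighter in the islet channel. The share of spots with a Cy5 signal above background was 14.0 ± 2.55% on NOD arrays and 6.21 ± 1.37% on NOD.B10 arrays (SD, n = 6 each, exact 2-sided permutation p = 0.00216, the smallest this design allows), while that for Cy3 was 50.4 ± 1.94% in NOD and 50.1 ± 2.27% in NOD.B10 (exact permutation p = 0.781). Among the NOD arrays the shares were 17.3% (replicate 2), 16.5% (replicate 1), 14.6% (replicate 6), 12.9% (replicate 4), 12.4% (replicate 3) and 10.7% (replicate 5). The brightest arrays, replicates 2 and 1, were among the 3 with the highest member means, and the dimmest, replicates 3 and 5, had the lowest. With the share of spots read as a covariate in the fit, 0 of the 5 members were called in limma (0 at an unadjusted p under 0.05), the difference of Cd3d was 0.0050 (limma adjusted p = 0.998), those of Cd5 and Cd8a became -0.21 and -0.58, and those of Il7r and Ms4a4b were 1.39 (limma adjusted p = 0.792) and 1.65 (limma adjusted p = 0.695). The share and the strain separate the arrays the same way, and their parts cannot be told apart. The arrays also lay on 4 slides, of which slides 2 and 3 held 2 mice of each strain, slide 1 only NOD replicates 1 and 2, and slide 4, read on another day, only NOD.B10 replicates 2 and 3.

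**Figure D3:**
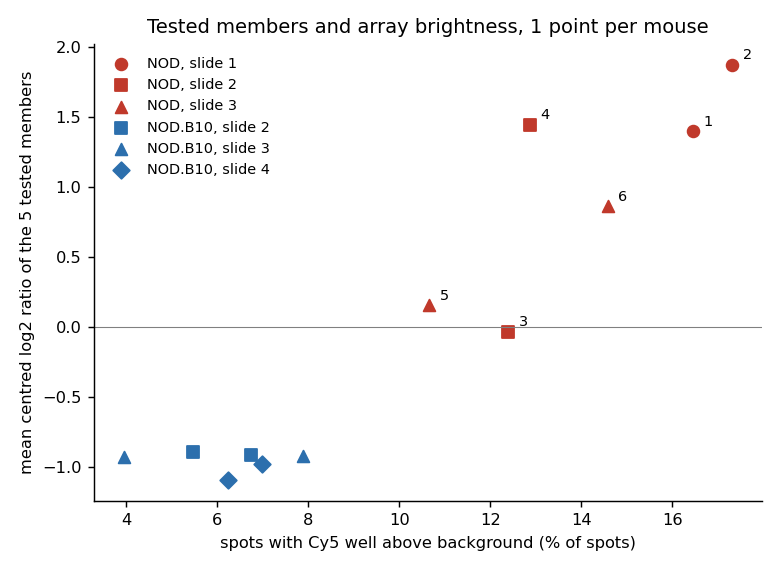
Mean centred log2 ratio of the 5 tested members against the percentage of spots with Cy5 well above background, 1 point per mouse, coloured by strain and shaped by slide, with NOD replicates numbered. NOD mice lie to the right of and above all NOD.B10 mice. Among the NOD mice the dimmest arrays, replicates 3 and 5, have the lowest member means.

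With slide as a fixed term, Cd3d, Il7r and Ms4a4b stayed called, with differences of 0.88, 2.50 and 3.02, and Cd5 (0.60, limma adjusted p = 0.0813) and Cd8a (0.60, limma adjusted p = 0.0540) did not. Within slide 2 the differences, NOD minus NOD.B10, were 0.89 for Cd3d, 0.48 for Cd5, 0.64 for Cd8a, 2.76 for Il7r and 3.27 for Ms4a4b. Within slide 3 they were 0.87 for Cd3d, 0.72 for Cd5, 0.56 for Cd8a, 2.25 for Il7r and 2.77 for Ms4a4b. All 5 thus had the same sign within both slides, where 2 mice stand against 2 and no member was called in limma (2 at an unadjusted p under 0.05 in either slide). The normalisation moved the sizes. Centring each array on its median in place of loess shifted the median difference of all genes by 0.44, and relative to that median Cd5 stood at 0.06, Cd8a at 0.27, Cd3d at 0.33, Ms4a4b at 1.52 and Il7r at 1.60. In the scanner's own processed ratios, which carry no added constant, the median of all genes was 0.48 and the members stood 2.84 (Cd5) to 6.40 (Il7r) above it. In the authors' deposited table of those ratios, NOD and NOD.B10 mice again did not overlap for Cd3d, Cd8a, Il7r and Ms4a4b. For Cd5 they did, since the lowest NOD mouse (-0.900) lay just below the highest NOD.B10 mouse (-0.895).

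**Figure D4:**
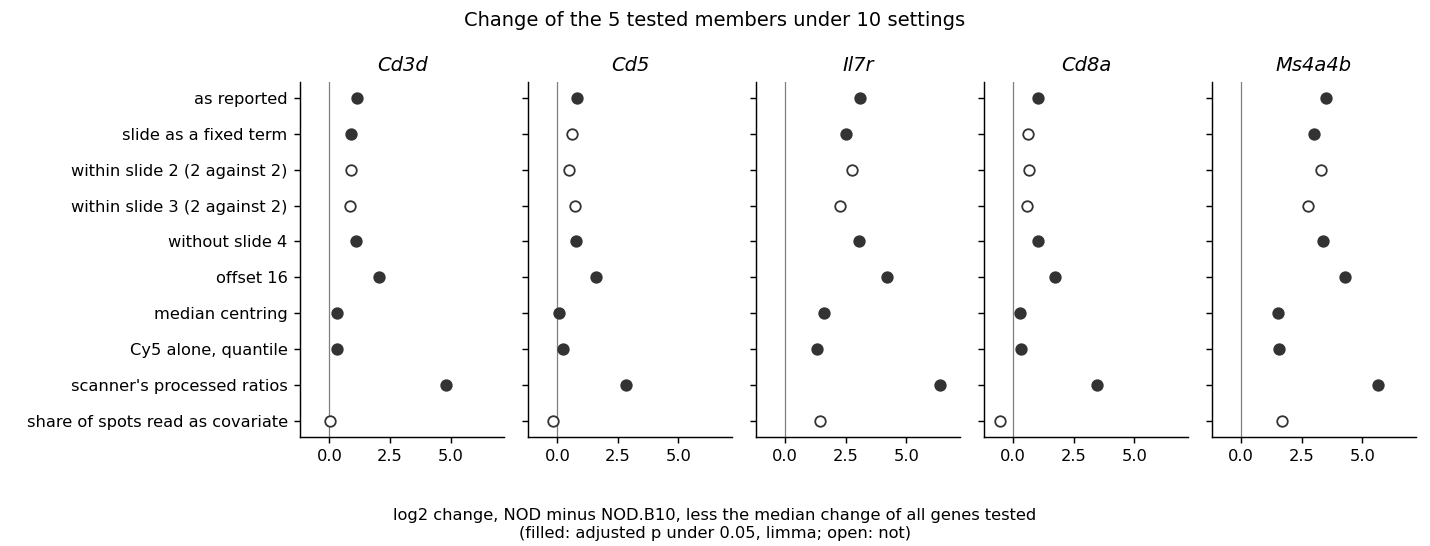
Difference of the 5 tested members, NOD minus NOD.B10 on the log2 scale less the median of all genes tested, under 10 settings (rows), filled where the limma adjusted p is under 0.05. The sign is positive in all settings shown but the covariate, where Cd5 and Cd8a fall below 0, and the size runs from near 0 with median centring (Cd5) to above 6 in the scanner's ratios (Il7r).

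Further genes were taken from T cell lists on receptor partners, surface, signalling, transcription, cytokine, homing and GTPase genes, and from relatives of Ms4a4b. Not all of these genes are particular to T cells. Of 116 genes with a probe, 37 passed the filter. Of the 37, 33 were called higher (18.8% of all genes tested were), 0 lower (18.1%) and 4 were not called. The median log2 difference of the 37 was 1.03, against -0.01 over all genes tested. Of the 33, 30 were above background on none of the NOD.B10 arrays (8.93% of all genes tested were called higher in this way). So they too passed through the NOD arrays, and the counts here and by list are descriptions. Of the 37, 19 were called with slide as a fixed term and 16 on slides 2 and 3 only. Of all 3920 genes tested, 361 and 303 were called higher there. With the share of spots read as a covariate, limma called 0 of the 37 (2 at an unadjusted p under 0.05) and 3 of all genes higher. With that covariate Cd48, Tnfrsf4, Spn, Lcp2, Txk, Fyb, Stat4, Ets1, Il18r1, Cxcr3, Gimap5 and Ms4a4c, described next, turned below 0. Partners within the receptor complex gave little: Cd247, the zeta chain, and Trat1, an adaptor of the complex, were read in islet RNA on no array. The constant regions of the receptor chains (Trac, Trbc1, Trbc2, Trdc) and Cd8b1 were not analysed here.

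Among costimulatory and surface genes 9 of 10 tested were called higher (median log2 difference 1.07). Thy1, a surface protein of mouse T cells, had a net Cy5 signal between 155 and 971 in NOD islets and between 4.5 and 30 in NOD.B10 islets. It was well above background on 5 NOD.B10 arrays too, which makes it a T cell gene measured in both strains. Its difference was 2.65 ± 0.34 (SE, limma adjusted p = 0.000131). That is 6.27-fold on the scale with 50 added to every signal, which understates the change of dim signals such as those of NOD.B10 islets. Thy1 is also made outside T cells. Cd6, the 1 tested gene of this list that was not called, was well above background on 6 NOD and 3 NOD.B10 arrays. Its net Cy5 signal was 15.5 to 67.5 in NOD islets and 1 to 33 in NOD.B10 islets, which overlap. The difference of Cd6 was 0.58 ± 0.26 (SE, limma adjusted p = 0.0919). Cd48, the mouse ligand of Cd2, was at least 1.91-fold higher in NOD, Spn (CD43) at least 1.51-fold and Tnfrsf4 (OX40) at least 1.06-fold.

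Of the genes of receptor signalling 7 of 8 tested were called higher (median log2 difference 0.94). Ptpn22, a phosphatase that damps signalling by Lck and related kinases, was the furthest from zero of them at 3.15 ± 0.33 (SE, limma adjusted p = 4.00e-05), with a signal at least 5.42-fold higher in NOD islets. On the log2 scale the adaptors Fyb and Lcp2 differed by 1.28 and 1.06 and the kinase Txk by 1.03. In islet RNA Zap70, the kinase that Lck activates, was read on no array and the adaptor Lat on 1 NOD array, so neither was tested.

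Transcription factors had 3 of 5 tested called higher (median log2 difference 0.68), namely Klf2 (1.68), which keeps T cells quiescent and circulating, Stat4 (0.71), which acts downstream of interleukin 12, and Ets1 (0.68). Foxp3, the factor of regulatory T cells, was read in neither RNA.

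All 3 cytokine receptor genes tested were called higher on the log2 scale: Ifngr1 (2.30), well above background on all 12 arrays, Il18r1 (0.76) and Il2rb (0.47). All 7 homing genes tested were called higher (median log2 difference 0.86), among them the chemokine receptors Cxcr3 (1.42), Cxcr6 (1.15) and Cxcr4 (0.86) and the integrin chain Itgb7 (1.47). Gimap5, a GTPase that lymphocytes need to survive, was the 1 Gimap gene tested and differed by 1.12 on the log2 scale. Of the relatives of Ms4a4b 3 of 3 tested were called higher, with log2 differences of 3.27 for Ms4a6b (at least 6.24-fold higher in NOD), 1.51 for Ms4a7 and 1.18 for Ms4a4c. The Ms4a genes resemble one another in sequence and probe cross-reaction was not tested.

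**Figure D5:**
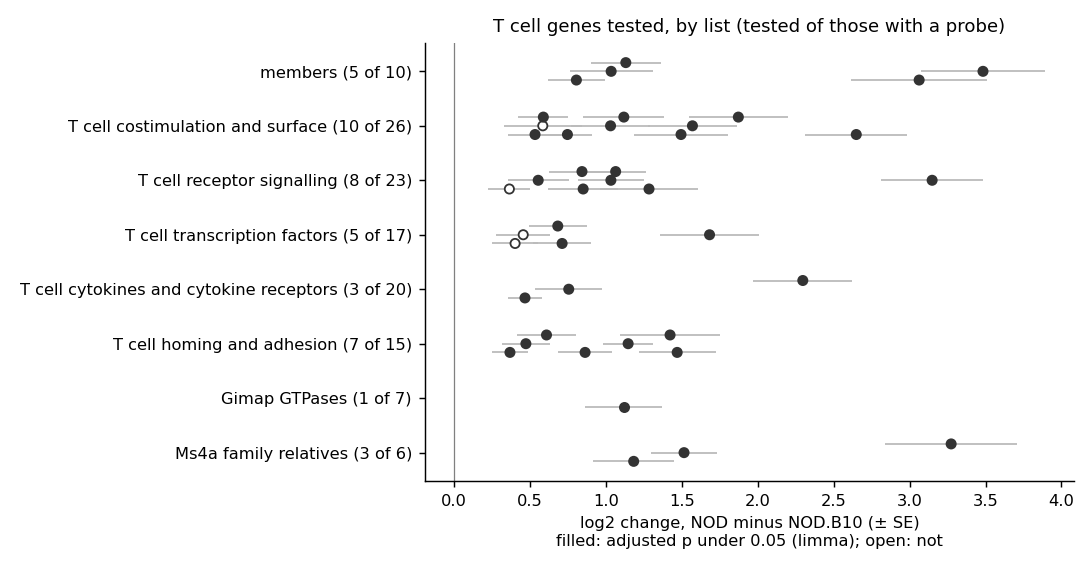
Difference of each tested gene of the T cell lists and of the Ms4a relatives, NOD minus NOD.B10 on the log2 scale with its SE. Each list is given with the number tested of the number with a probe. All points lie above 0, and 4 of the 37 genes outside the member row are open (not called).

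Markers of other leukocytes had higher signals in the same mice. Of the genes called higher among them, all 8 of B and plasma cells, all 3 of NK and cytotoxic cells, 6 of the 7 pan-leukocyte ones and 2 of the 6 of macrophages and dendritic cells were above background on no NOD.B10 array, so their counts are descriptions too (18.8% of all genes tested were called higher). Of B and plasma cell markers 8 of 8 tested were called higher, and their summed net Cy5 signal was 447 to 3181 in NOD islets and 4.5 to 27.9 in NOD.B10 islets. For Ms4a1 (CD20) the ratio of normalised Cy5 signals, NOD over NOD.B10, was 7.57, while Cd79a was read on no array. Macrophage and dendritic cell markers had 6 of 7 called higher, with sums of 1164 to 7863 in NOD and 58.5 to 149 in NOD.B10. NK and cytotoxic markers had 3 of 3, with sums of 107 to 636 in NOD and -6.38 to 14.5 in NOD.B10. Pan-leukocyte markers had 7 of 7, with sums of 614 to 4607 in NOD and 15.3 to 60.5 in NOD.B10, and Ptprc (CD45) was at least 10.3-fold higher in NOD. Of beta cell markers 3 of 6 tested were called lower, among them Ins2 with a log2 difference of -3.35, and of acinar markers 5 of 7. Their summed net Cy5 signals overlapped between the strains, at 4284 to 33151 in NOD and 12161 to 30865 in NOD.B10 for beta cells and 304 to 3866 in NOD and 242 to 10967 in NOD.B10 for acinar cells. Of 3 other endocrine genes 1, Gcg, was called lower, but its direction turned with median centring (1.21) and Cy5 alone (1.07), and the summed signal of the 3 was 25646 to 38115 in NOD and 10863 to 26560 in NOD.B10. The difference of the beta cell gene Ins1 turned as well with median centring (0.17). Among the fits that left out 1 mouse each, Ins1 lost its call in 10, the acinar genes Sycn and Cpb1 in 6 and 4, and Gcg in 3. Ins2 and the acinar genes Amy1 and Cel lost theirs in 0. Ins2 kept its call in 23 of 27 alternatives, with differences of -4.09 to -0.05. Its net Cy5 signal overlapped between the strains, at 3259 to 22447 in NOD and 9542 to 24830 in NOD.B10. Endothelial markers gave 0 of 3 called in limma (0 at an unadjusted p under 0.05). Several members and listed genes, such as Il7r, Ptpn22 and Cd48, are also made by leukocytes other than T cells. The part of these cells in the members' differences was not tested.

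The genes whose pattern over the 12 arrays was most like that of the 5 tested members were found by the root mean square difference from the members' mean centred log2 ratio. Members apart, the 5 nearest were Myo1g (0.17), Dgka (0.18), Crlf3 (0.21), Map3k1 (0.21) and Ptprcap (0.23). All 5 were called higher, by 1.62 (Crlf3) to 2.09 (Ptprcap), as were 18.8% of all genes tested. They were picked for likeness to a profile that is itself higher in NOD, so these calls are a description. Map3k1 was well above background on all 6 NOD.B10 arrays, Dgka on 1, and Myo1g, Crlf3 and Ptprcap on none.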

How the data were processed

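Cy5 (islet) and Cy3 (reference) were measured on 12 two-colour arrays, 6 NOD and 6 NOD.B10, without dye swap. Per the file headers, the authors' scanner software (Feature Extraction 10.5.1.1) gave the deposited intensity values, a median signal and a median local background per spot and channel. The same files hold a log10 ratio of processed signals made by the authors' feature extraction, and the deposited series table holds them as log2 ratios (100% of 491148 single-spot values equal within 0.01). Each array has 45018 spots, 1639 of them controls. No spot was saturated, and 160 to 250 outlier spots per array were left out of probe averages where another spot remained.

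Background was corrected by normexp with an offset of 50, and arrays were normalised by loess, in limma 3.58.1 under R 4.3.3. Accessions gave 24375 probes a symbol of assembly GRCm38.p6 (17016 symbols). A probe entered where the scanner marked Cy5 as well above background on 4 or more of 12 arrays (5347 probes). The probe with the highest mean Cy5 stood for each symbol (3920 genes). Strains were compared with lmFit and eBayes, with Benjamini-Hochberg adjustment and a threshold of 0.05. This fit called 736 genes higher and 709 lower. Probes outside the filter were read from the same fit over all 41174 probes. No arrays were identical. Nothing in the labels pairs mice by number, and same-numbered mice did not deviate together in all pairs (correlations from -0.15 to 0.21). Precision is limited by 6 arrays per strain and by signal over background, since arrays carry no counts.

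The text names all members with every probe, in each list up to 4 called genes with the smallest p (or up to 2 tested where none was called), the 5 genes nearest to the members' profile, and a fixed set with Ptprc, Ins2, Cd79a, Ms4a1, Thy1 and partners of the receptor. A few such genes are given only in the closing section. Cd6 is named outside this rule, as a listed gene read in both strains and not called. The members, the lists and the floor for fold bounds were chosen with earlier results of these data known. Alternatives were the scanner's ratios, median centring, Cy5 alone, another offset, other filters, slide terms, array weights, brightness as a covariate, a replicate block and leaving out each mouse.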

Additional observations from a re-analysis of the deposited data

Results flagged for a closer look

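Of 34 checks within a strain, of each member probe and of array brightness, 1 stood out, where chance alone gives about 1 in 20. The Cd8a probe A_51_P345121, read in islet RNA on 2 NOD arrays and no NOD.B10 array, had a log2 ratio of 0.27 in NOD.B10 replicate 6, far above the other NOD.B10 mice (its gap to the next mouse was 0.679 of the strain's range). The net Cy5 signal there was 7.5 scanner units. The main Cd8a probe had 2.19 units on that array without outlier spots and 4.2 over all 10 spots, 1 of which was well above background.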

How the results depend on the processing

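The 5 tested members kept their call in all 12 fits that left out 1 mouse each, with slide as a random block, without slide 4, without a filter, with array weights and in the scanner's ratios, median centring, Cy5 alone and offset 16. Median centring put the median difference of all genes at 0.44 and called 1980 of them higher, and Cd5 barely exceeded that median. With the replicate number as a block 5 members were called, with 638 genes higher and 597 lower, and it changed no member's call. Of the 5 members, 3 were called with a fixed slide term, 3 on slides 2 and 3 only (an alternative chosen after seeing the data; Cd5 and Cd8a lost, limma adjusted p = 0.0695 and 0.0748), 3 where 6 arrays had to be read (Cd5 and Cd8a not tested), 0 within slide 2, 0 within slide 3 and 0 with the share of spots read as a covariate. For the other genes of the T cell lists, relatives of Ms4a4b included, these counts were 19, 16, 21, 1, 0 (limma, with 14 at a raw p under 0.05) and 0 (with 2), against 33. Leaving out 1 mouse each gave 29 to 37 of them, 602 to 851 genes higher and 577 to 808 lower.

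Genes called higher, 736 as reported, numbered 1980 with median centring, 361 with a fixed slide term, 303 on slides 2 and 3 only, 38 within slide 2, 1 within slide 3 and 3 with the covariate. Genes called lower, 709 as reported, numbered 0 with median centring (limma, with 2 at a raw p under 0.05), 313 in the scanner's ratios, 247 with Cy5 alone, 1392 without a filter, 354 with a fixed slide term, 271 on slides 2 and 3 only, 46 within slide 2, 1 within slide 3 and 0 with the covariate (with 138).

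With the covariate the difference turned below 0 for Cd5 (-0.21), Cd8a (-0.58), Cd48 (-0.057), Tnfrsf4 (-0.16), Spn (-0.42), Lcp2 (-0.18), Txk (-0.21), Fyb (-0.50), Stat4 (-0.38), Ets1 (-0.0064), Il18r1 (-0.15), Cxcr3 (-0.54), Gimap5 (-0.28), Ms4a4c (-0.52) and the cytotoxic gene Nkg7 (-0.15), and above 0 for Gcg (0.60) and Flt1 (0.22). Median centring turned Ins1 (0.17), Gcg (1.21), Flt1 (0.11) and Plvap (0.73) above 0, and Cy5 alone turned Gcg (1.07). Plvap also turned with a fixed slide term (0.32), within slide 2 (0.20), within slide 3 (0.44), without slide 4 (0.21) and on slides 2 and 3 only (0.32). The cause of these changes was not tested. The lowest signal above background, as another floor, lay under the members' own NOD.B10 signals. It set no bound, and left ratios of the normalised Cy5 signals, 8.00 for Ms4a4b, 5.18 for Il7r, 1.72 for Cd3d, 1.72 for Cd8a and 1.51 for Cd5. These ratios are averaged as logarithms with the constant of 50 added to every signal, so they understate the ratios of net signals. Signal over background limits the members, since no NOD.B10 array read any of them, so sizes there are bounds, and the 5 untested members have no usable islet reading.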
